A study of Mus musculus with 16 samples.

Results

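The motile cilium genes are those whose symbol in the annotation used begins with Dnah, Dnai, Dnal, Dnaaf, Cfap, Rsph, Tekt, Ift or Drc. Foxj1, Ccdc39, Ccdc40, Hydin, Spag6 and Mcidas belong to them as well. The rule uses names in the annotation of the array probes, not measured values, and was written with earlier results of these data known. The annotation holds 97 such symbols, of which 63 were matched by at least 1 of 93 probes on the arrays. Of these 63 genes, 59 were measured, among 18566 genes and unnamed transcripts in all. Cfap61 was above background on 0 of 16 arrays, Rsph6a and Spag6 on 2 each and Dnaaf6 on 3, so these 4 genes were not measured. Mcidas and Ccdc40 had no matched probe.

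The samples were airway epithelium, brushed from the airways of FvB mice that lacked the integrin subunit beta6 (ko, gene Itgb6) or were wild type (wt), 6 to 8 weeks old at sensitization. Ovalbumin (OVA), a protein from egg white, served as the allergen. Mice of the OVA groups received 20 ug of it by intraperitoneal injection on days 1, 4 and 7 and then 10 ug intranasally once per week for 9 weeks. Saline groups received saline by the same routes, and all tissue was taken 24 h after the last challenge. The groups were ko_OVA, ko_saline, wt_OVA and wt_saline, with 4 arrays each. The labels do not say whether an array held RNA of 1 mouse or of several, so p-values measure the spread between these arrays.

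Motile cilia beat by means of dynein arms, which slide the doublet microtubules of the axoneme past each other. Nexin-dynein regulatory complexes, radial spokes and the central apparatus turn that sliding into a regular beat, and intraflagellar transport carries the parts to the growing tip. Foxj1 is the transcription factor that switches this gene programme on in multiciliated airway cells, where the beating clears mucus from the airway. RFX factors act beside it and bind a palindromic site called the X-box.

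Levels are log2 ratios of a spot's signal to its array's 75th percentile, so that 0 stands for a signal at that percentile. Differences were tested with limma across all 18566 features, and a gene was called where its Benjamini-Hochberg adjusted p was under 0.05. A dim array limits what can be seen: the 75th percentile of the raw signal ran between 78.0 and 793 units, and the share of probes well above background between 43.3% and 62.7% on 14 arrays. The arrays wt_OVA 1 and wt_OVA 2 stood apart, with 74.5% and 72.7% of probes well above background. On wt_OVA 1 the median signal was 18.8% of the 75th percentile, against 6.98% to 10.3% on the other 15 arrays. The choice of scale therefore bears on this group, and results are given below with and without both arrays. Itgb6 gave signal in both genotypes, between -1.71 and -0.73 in ko and between -0.93 and -0.39 in wt. Whether its probe lies in the deleted part is not given in the sources used here, so it does not check the genotype.

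Promoters are shown because the cilium genes varied together and because the X-box is the site that RFX factors bind. RefSeq windows on GRCm38.p6, each running from 250 bases before to 50 bases after a start, were found for 48 of the 59 measured genes. Below, letters in capitals mark matches to the X-box, searched as GTNNCC and GGNAAC with any 2 bases between them, or to its half-site GTTGCC, both searched on both strands. The half-site can lie within the X-box.
The Cfap298 window is chr16:90934800-90935099 on the minus strand, and the gene's product takes part in dynein arm assembly and cilium beating.
Cfap298: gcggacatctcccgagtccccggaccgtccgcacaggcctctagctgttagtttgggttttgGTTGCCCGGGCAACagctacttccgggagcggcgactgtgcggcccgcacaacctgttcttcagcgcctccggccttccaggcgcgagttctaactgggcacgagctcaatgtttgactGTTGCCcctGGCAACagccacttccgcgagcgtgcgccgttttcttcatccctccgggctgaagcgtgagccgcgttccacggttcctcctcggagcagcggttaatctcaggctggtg
The Ift57 window is chr16:49699044-49699343 on the plus strand, for a subunit of the intraflagellar transport train.
Ift57: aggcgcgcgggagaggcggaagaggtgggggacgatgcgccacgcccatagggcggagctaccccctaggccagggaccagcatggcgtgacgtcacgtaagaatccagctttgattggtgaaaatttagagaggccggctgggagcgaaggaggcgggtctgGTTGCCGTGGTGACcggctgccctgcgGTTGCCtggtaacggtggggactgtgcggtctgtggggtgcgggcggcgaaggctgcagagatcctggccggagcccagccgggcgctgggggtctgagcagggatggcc
A Tekt1 window is chr11:72361833-72362132 on the minus strand, for a tektin filament protein of the doublets.
Tekt1: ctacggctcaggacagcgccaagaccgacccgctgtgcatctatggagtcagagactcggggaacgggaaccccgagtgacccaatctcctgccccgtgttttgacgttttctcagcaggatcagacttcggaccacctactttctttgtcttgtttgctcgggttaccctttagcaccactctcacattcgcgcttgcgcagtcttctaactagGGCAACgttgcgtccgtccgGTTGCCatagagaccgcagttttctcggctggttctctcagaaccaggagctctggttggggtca
The Ccdc39 window is chr3:33844261-33844560 on the minus strand, and no match was found in it.
Ccdc39: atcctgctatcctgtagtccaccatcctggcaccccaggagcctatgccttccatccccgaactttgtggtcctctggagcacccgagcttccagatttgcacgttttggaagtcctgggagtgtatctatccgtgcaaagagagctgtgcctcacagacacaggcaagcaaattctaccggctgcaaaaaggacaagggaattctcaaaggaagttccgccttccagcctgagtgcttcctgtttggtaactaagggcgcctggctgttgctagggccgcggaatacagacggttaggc
The Dnah8 window is chr17:30626686-30626985 on the plus strand, likewise with no match.
Dnah8: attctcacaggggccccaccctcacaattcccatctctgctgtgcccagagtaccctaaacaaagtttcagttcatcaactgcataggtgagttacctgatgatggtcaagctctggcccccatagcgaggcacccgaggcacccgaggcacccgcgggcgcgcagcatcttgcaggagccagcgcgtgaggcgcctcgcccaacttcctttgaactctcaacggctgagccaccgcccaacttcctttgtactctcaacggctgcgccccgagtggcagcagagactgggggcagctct
The X-box was present in 8 of 54 windows of measured cilium genes, or 14.8%, against 1.29% of all 32851 windows of the table. The genes with it were Cfap206, Cfap20dc, Cfap298, Dnaaf5, Dnaaf6b, Ift22, Ift57 and Tekt4. The half-site was in 37.0% of cilium windows and 12.5% of all windows. The CCAAT box, a general promoter element, was in 51.9% and 37.4%, and the forkhead letters GTAAACA were in 1.85% and 3.65%. These shares describe letters in short windows, with no matching for base composition. Dnah9 and Cfap52, like Ccdc39 and Dnah8, had neither the X-box nor the half-site in their windows.

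After OVA, wt airway epithelium had more signal from nearly all cilium genes. In wt_OVA against wt_saline, 57 of 59 genes were higher (44 of 59 when arrays were scaled by their medians), with a median log2 change of 0.38, against a median of 0.00 over all 18566 features. Of the 59, 5 were called, all of them higher: the dynein heavy chains Dnah8, Dnah9 and Dnah2, the ruler protein Ccdc39, and Cfap52. Over all features, 2.61% were called in this comparison and 1.56% were called higher. At an unadjusted p under 0.05 there were 34 of the 59, against 16.5% of all features. A further count uses the arrays themselves: of 53 cilium genes with all arrays present, 16 had every wt_OVA array above every wt_saline array and 0 had every array below. Over all features with all arrays present, 4.74% lay wholly above and 4.28% wholly below. These are bulk samples on a relative scale, so a larger share of ciliated cells and more RNA per ciliated cell cannot be told apart.

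The median change was smaller in ko than in wt, an order that turned under median scaling, where it was 0.27 in ko and 0.10 in wt. In ko_OVA against ko_saline, 54 of 59 cilium genes were higher, with a median of 0.25 against 0.00 over all features, and 0 were called by limma, where 0.749% of all features were. At an unadjusted p under 0.05 there were 16, against 9.73% of all features. All arrays of ko_OVA lay above all arrays of ko_saline for 5 of 53 genes, namely Ccdc39, Cfap52, Dnaaf2, Dnah9 and Dnal1, against 2.94% of all features. Both genotypes together, with the OVA change averaged over them, gave 16 of 59 genes called higher and 0 called lower, where 6.46% of all features were called and 3.72% called higher. At an unadjusted p under 0.05 there were 39, against 19.7% of all features. The median of this averaged change was 0.31, against 0.01 over all features.

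**Figure D1:**
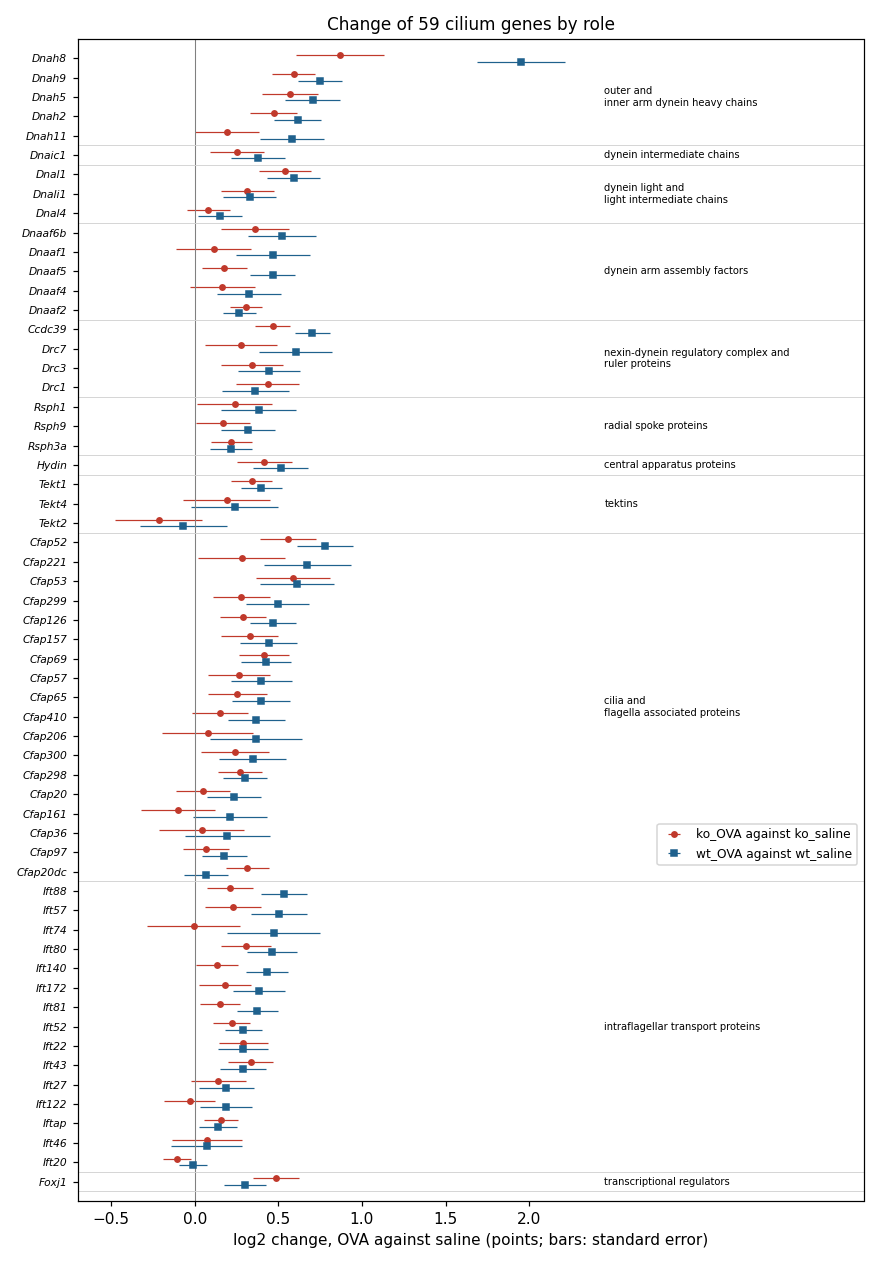
Log2 change of each of the 59 measured cilium genes, OVA against saline, in ko (circles) and wt (squares), grouped by role, with standard errors. Nearly all points lie to the right of 0, Dnah8 in wt stands at 1.95, and Tekt2 and Ift20 lie at or below 0.

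Among the dynein heavy chains, the motor subunits of the arms, 5 of 5 measured genes were higher in wt, with a median of 0.70. Dnah8, an outer arm chain best known from sperm flagella, had levels of -0.59, -1.67, -0.90 and -0.67 on the wt_OVA arrays, against -2.95, -2.98, -2.82 and -2.88 on the wt_saline arrays. The groups did not overlap. The change was 1.95 ± 0.26 (SE), or 3.86-fold, with an adjusted p of 0.00148 in limma. In ko the levels of Dnah8 were -2.76, -1.67, -1.95 and -2.54 after OVA, against -3.17, -3.32, -3.32 and -2.59 after saline. One ko_saline array reached into the range of ko_OVA, and 2 of the 4 lay at the floor of -3.32 set for dim signals, so the size of the ko change of 0.87 ± 0.26 (adjusted p = 0.201) depends on that floor. The wt_saline arrays also lay near the floor, and 3 of the 4 had the probe well above background. No wt array lay at the floor for Dnah8, so a lower floor could not alter the wt change of 1.95. With normexp background correction and quantile normalization, the wt change was 1.20. The call of Dnah8 in wt was kept under all 35 alternatives, with changes between 1.20 and 2.21. Among 5 germ cell markers, 3 were measured, and their summed level was 0.46 to 0.87 times the 75th percentile in wt_OVA and 0.44 to 0.98 in wt_saline. Their part in the Dnah8 result was not tested.

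Dnah9, an outer arm heavy chain of airway cilia, had levels of 4.41, 4.56, 4.67 and 4.23 in wt_OVA, against 3.59, 3.47, 3.92 and 3.89 in wt_saline. In ko it had 4.40, 4.02, 4.48 and 4.16 after OVA, against 3.68, 3.63, 3.71 and 3.66 after saline. In neither genotype did the groups overlap. The change was 0.75 ± 0.13 in wt (adjusted p = 0.00799) and 0.59 ± 0.13 in ko, where the adjusted p of 0.0553 missed the threshold. Dnah2, an inner arm heavy chain, had 4.92, 5.27, 5.28 and 5.0005 in wt_OVA, against 4.48, 4.48 and 4.55 on the 3 wt_saline arrays with a usable spot. Its change of 0.61 ± 0.14 in wt (adjusted p = 0.0406) was close to the threshold and was kept under 15 of 35 alternatives. A second probe each of Dnah2 and Dnah9 stayed at the floor in all comparisons and gave no change.

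Ccdc39 sets, with Ccdc40, the repeat along which dynein arms and regulatory complexes attach. Its levels were 1.79, 1.89, 2.05 and 1.91 in wt_OVA, against 1.01, 1.096, 1.34 and 1.39 in wt_saline. In ko they were 1.69, 1.76, 1.78 and 1.73 after OVA, against 1.16, 1.23, 1.20 and 1.52 after saline. The groups were apart in both genotypes. The change was 0.70 ± 0.10 in wt, or 1.63-fold (adjusted p = 0.00282), and 0.47 ± 0.10 in ko (adjusted p = 0.0589). The nexin-dynein regulatory complex and ruler genes together numbered 4, all higher in wt, with a median of 0.52.

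**Figure D2:**
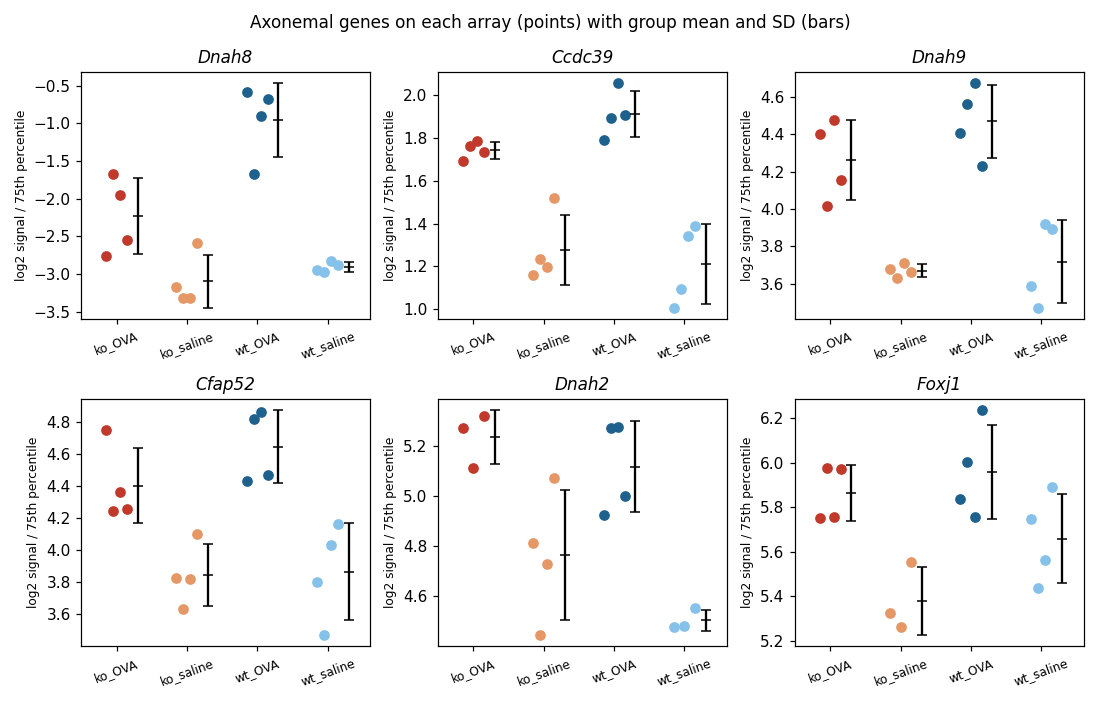
Log2 signal over the 75th percentile (vertical axis) for 6 cilium genes, 1 point per array and bars for the group mean and SD. Dnah8, Ccdc39, Dnah9 and Cfap52 have all wt_OVA arrays above all wt_saline arrays, and Foxj1 overlaps between these groups.

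Of the genes named Cfap, for cilia and flagella associated proteins, 18 of 18 were higher in wt, with a median of 0.38. Cfap52, a protein of the inside of the doublet microtubules, had 4.43, 4.82, 4.86 and 4.47 in wt_OVA, against 3.80, 3.47, 4.03 and 4.16 in wt_saline. In ko it had 4.75, 4.25, 4.36 and 4.26 after OVA, against 3.83, 3.63, 3.82 and 4.10 after saline. The groups were again apart in each genotype. Its change was 0.78 ± 0.17 in wt (adjusted p = 0.0238) and 0.56 ± 0.17 in ko (adjusted p = 0.190). Without any 1 of the arrays wt_OVA 2, wt_OVA 3, wt_saline 1 or wt_saline 2, Cfap52 was not called in wt. In those fits 3 cilium genes were called, namely Ccdc39, Dnah8 and Dnah9. The share of all features called there is not given here, so this count describes calls only. Cfap126 and Cfap69 were called in the average of both genotypes, at 0.38 ± 0.10 and 0.42 ± 0.11, and those calls were kept under 17 and 20 of 34 alternatives.

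Other structural groups were also higher in wt, without a call. Hydin, a giant protein of the central apparatus, had 2.79, 3.34, 3.34 and 3.06 in wt_OVA, against 2.51, 2.38, 2.87 and 2.72 in wt_saline, and these groups overlapped. Its change was 0.51 ± 0.17 in wt and 0.42 ± 0.17 in ko, and it was called only in the average over genotypes, at 0.46 ± 0.12 (adjusted p = 0.0314), a call kept under 21 of 34 alternatives. Dnaic1, an outer arm intermediate chain, had a change of 0.38 in wt. The 3 light and light intermediate chains had a median of 0.33 in wt, led by Dnal1 at 0.59, which was called in the average at 0.57 ± 0.11. A second probe of Dnal1 had a change of -0.38 in wt. The 5 assembly factors, which fold dynein arms in the cytoplasm, had a median of 0.47, and Dnaaf2 was called in the average at 0.29 ± 0.07. The 3 radial spoke genes, among them Rsph9 and Rsph3a, had a median of 0.32 with 0 called.

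The genes that were lower in wt, Tekt2 and Ift20, belong to the tektins and the transport genes. In ko 5 genes were lower, these and Cfap161, Ift122 and Ift74, the lowest being Tekt2. Tekt1 was called in the average at 0.37 ± 0.09, whereas Tekt2 had a change of -0.07 in wt and -0.22 in ko. Of 15 intraflagellar transport genes 14 were higher in wt, with a median of 0.29. Ift88, a core subunit of the train, had a change of 0.53 in wt and was called in the average at 0.37 ± 0.10, as was Ift80 at 0.38 ± 0.10. Neither call was firm: that of Ift88 was kept under 16 of 34 alternatives and that of Ift80 under 12. Ift20, which also serves at the Golgi, had 4.32, 4.35, 4.27 and 4.30 in wt_OVA, against 4.32, 4.37 and 4.26 in wt_saline. These groups overlapped, with a change of -0.01.

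Foxj1 had levels of 5.84, 6.00, 5.75 and 6.23 in wt_OVA, against 5.74, 5.43, 5.56 and 5.89 in wt_saline, and these overlapped. In ko it had 5.75, 5.98, 5.76 and 5.97 after OVA, against 5.33, 5.26 and 5.55 on the 3 ko_saline arrays with a usable spot, which lay apart. The change was 0.30 ± 0.13 in wt (adjusted p = 0.261), 0.48 ± 0.14 in ko (adjusted p = 0.178) and 0.39 ± 0.09 in the average (adjusted p = 0.0269). Among all other measured genes, the 4 most correlated with Foxj1 across 15 arrays were Slc39a6 (Pearson r = 0.88), Manf (0.86), Edem1 (0.86) and Epcam (0.86). The arrays share the OVA contrast and their scaling, so this ranking is a description.

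No cilium gene was called between the genotypes. In ko_saline against wt_saline, 27 of 59 cilium genes were higher, with a median of -0.02 and 0 called, where 0.162% of all features were. Cfap20dc alone of 53 genes had every ko_saline array below every wt_saline array, against 2.01% of all features. At an unadjusted p under 0.05 there were also 0. In ko_OVA against wt_OVA, 54 of 59 were lower (3 of 59 under median scaling), with a median of -0.17 and 0 called, where 0.145% of all features were, and 2 had an unadjusted p under 0.05. Ccdc39 alone of 53 genes had every ko_OVA array below every wt_OVA array, against 0.732% of all features, and its change of -0.17 ± 0.10 had an adjusted p of 0.884. Dnah8 had the lowest p, with a change of -1.27 ± 0.26 and an adjusted p of 0.128. It was called here under 2 alternatives, with the array position as a block, at -1.38 (adjusted p = 0.0412), and without wt_OVA 2. The interaction of genotype and OVA, which tests whether the OVA change differed between ko and wt, had 0 calls among the cilium genes and 0% among all features. The median interaction over the cilium genes was -0.14, and of the cilium genes only Dnah8, at -1.08 ± 0.37 (adjusted p = 0.993), had an unadjusted p under 0.05. A smaller change in ko was therefore not shown for any single gene.

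Scaling turned the sign of the median in ko_OVA against wt_OVA and in the interaction. When arrays were divided by their median signal, the median of all genes itself moved to -0.25 in wt_OVA against wt_saline and to 0.32 in ko_OVA against wt_OVA. The cilium median was then 0.10 in wt, with 44 of 59 genes higher and only Dnah8 called (1.67, adjusted p = 0.0251), where 0.545% of all features were. In ko_OVA against wt_OVA it turned to 0.18, with 56 of 59 genes higher. Set against the median of all genes, the shift was 0.35 in wt under median scaling and 0.38 under 75th percentile scaling. In ko against wt after OVA it was -0.15 under the first and -0.17 under the second. With median scaling but without wt_OVA 1 and wt_OVA 2, the cilium median was 0.48 in wt and -0.19 in ko_OVA against wt_OVA. The turn in ko_OVA against wt_OVA was thus absent without those 2 arrays. Under median scaling, the median deviation of the cilium genes was -0.98 on wt_OVA 1 and 0.20 on wt_OVA 2. It was 0.59 on wt_OVA 3 and 0.16 on wt_OVA 4. The part of each array alone was not tested under median scaling. With 75th percentile scaling and without both arrays, the median was 0.40 in wt, and Ccdc39 and Dnah8 were called, where 0.867% of all features were.

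**Figure D3:**
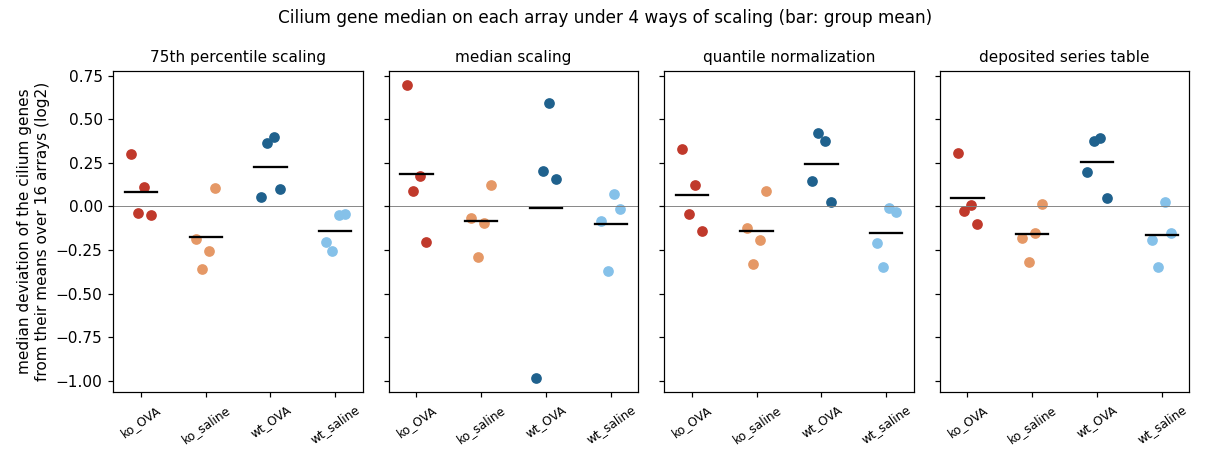
Median deviation of the cilium genes from their means over the 16 arrays (vertical axis, log2), 1 point per array, under 4 ways of scaling, with a bar at each group mean. Under median scaling wt_OVA 1 lies at -0.98, whereas under 75th percentile scaling all wt_OVA arrays lie between 0.05 and 0.40.

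**Figure D4:**
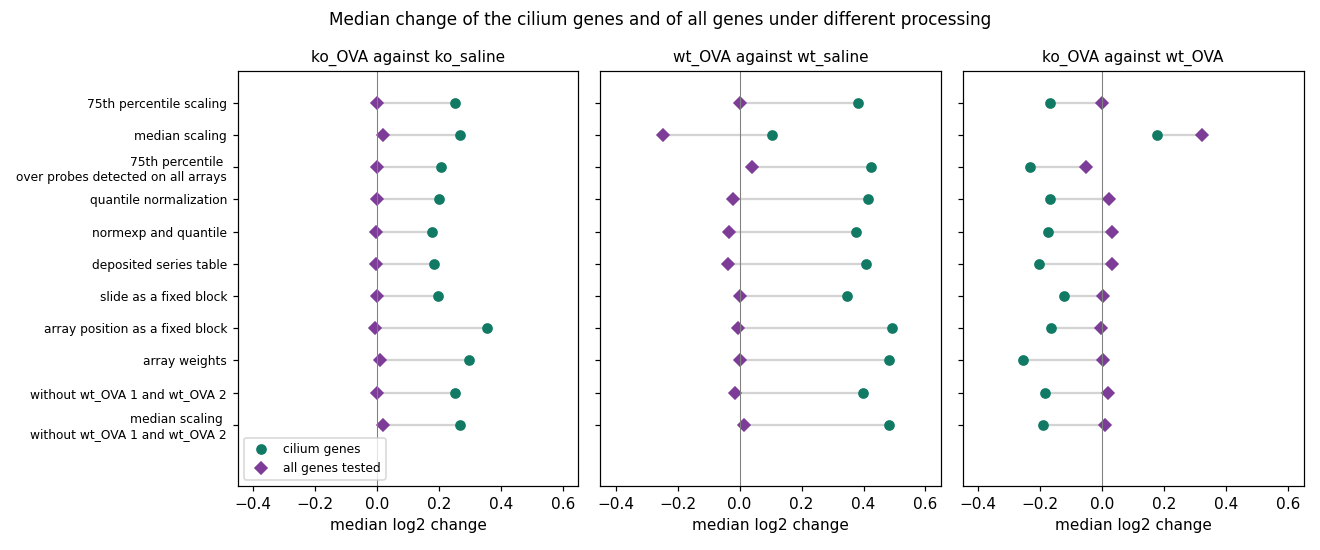
Median log2 change (horizontal axis) of the cilium genes (circles) and of all genes tested (diamonds) under 11 ways of processing, in 3 comparisons. Median scaling moves both medians together, to 0.10 and -0.25 in wt, and the distance between them stays near that of the other settings.

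A further fit set each gene against the median of the cilium genes. After the median deviation of the cilium genes was subtracted from each array, Dnah8, Dnah9 and Cfap52 were called higher in wt, at 1.58, 0.38 and 0.41, so 3 of 59 were called where 23.5% of all features were, 150 higher and 4205 lower. In the average over genotypes, Ccdc39, Cfap52, Dnah5, Dnah8 and Dnah9 were called higher than the rest, and Ift122, Ift20 and Tekt2 were called lower, at -0.23, -0.38 and -0.45. These 8 of 59 compare with 39.7% of all features called in that fit. Both shares follow in part from the subtraction. It lowered every feature on arrays where the cilium median was high, so neither share is a neutral background. The cilium genes otherwise varied together from array to array. The median correlation between pairs of cilium genes was 0.63 over 16 arrays and 0.49 for deviations from the group means, and these pairs share array, scale and label. Cfap157 followed the others most closely, with a median r of 0.79, and Ift20 least, with -0.25.

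The slides gave a further view, since slide and scan session went together. Within the 3 slides that held both groups, the cilium median of wt_OVA against wt_saline was 0.46, 0.34 and 0.25, and Dnah8 differed by 1.21, 2.27 and 2.08. For ko_OVA against ko_saline it was -0.03, 0.48 and 0.29, and on the first of these slides 24 of 53 genes were higher. For ko_OVA against wt_OVA it was -0.33, 0.20 and -0.24, so the direction of that difference was not the same on all slides. These comparisons rest on 1 or 2 arrays a side and have no test. With slide as a block in the fit, 4 genes were called in wt, 0 in ko and 8 in the average, where 1.85%, 0.533% and 4.02% of all features were. With the array's position on its slide as a block, only Dnah8 was called in wt and 7 genes in the average, where 0.506% and 2.83% of all features were. Positions were not balanced over the groups. They were 3, 4, 4 and 3 in ko_OVA, 1, 3, 1 and 3 in ko_saline, 4, 2, 1 and 4 in wt_OVA, and 2, 2, 2 and 1 in wt_saline. Position and OVA therefore cannot be fully told apart.

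Most related genes outside the name rule also had higher levels in wt after OVA, less so under median scaling. Over all features, 2.61% were called in wt and 0.749% in ko after OVA. Between genotypes, 0.162% were called after saline and 0.145% after OVA. Of 31 other measured genes of the motile axoneme, 31 were higher in wt after OVA, with a median of 0.45 (0.18 under median scaling). Among them 2 were called, Kif9 at 0.60 and Lrrc6 at 0.64. Kif9 is a kinesin of the central apparatus and Lrrc6 a dynein arm assembly factor. The name rule also holds genes of both kinds, so list and rule are not separate parts of the cilium. In ko 27 of the 31 were higher, with a median of 0.25 and 0 called. Enkur, an axonemal protein in this list, was called higher in ko than in wt after saline (1.57, adjusted p = 7.87e-05) and after OVA (1.17, adjusted p = 0.0023). There were 33 measured genes for the BBSome, the transition zone and transport, which primary cilia share. Of these, 32 were higher in wt, with a median of 0.37 (0.09 under median scaling). Only Nphp4 was called, at 0.58, and 1 of 33 is near the share of 2.61% over all features. Of 15 regulators of the multiciliated programme and of centriole amplification, 11 were higher and 4 lower in wt, with 0 called and a median of 0.19 that turned to -0.04 under median scaling. The lower ones were Ccno, at -0.47, Foxn2, Cep63 and E2f4.

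Markers of some cell types differed with OVA too. Over all features, 2.61% were called in wt after OVA, 0.749% in ko after OVA and 0.162% in ko_saline against wt_saline. Of 8 measured ciliated cell markers, 8 were higher in wt after OVA, with a median of 0.34 and 0 called. Under median scaling the median was 0.06, and Tubb4b, Tppp3 and Dynlrb2 were below 0. Foxj1 and Tekt1 are on that list. The summed level of the 5 with a usable spot on every array was 131 to 175 times the 75th percentile in wt_OVA and 108 to 131 in wt_saline, and 124 to 163 in ko_OVA and 104 to 147 in ko_saline. The 6 measured club cell markers were all lower in wt, with a median of -0.87 and 3 called, Aox3, Hp and Cckar. Their sum over 4 markers was 189 to 249 in wt_OVA and 476 to 720 in wt_saline. In ko 2 of the 6 were higher, with a median of -0.35 and 1 called, Aox3, which was lower, and the sum was 287 to 349 after OVA and 293 to 810 after saline. Of 6 basal cell markers, 0 were higher in wt (median -0.54) and 5 in ko (median 0.30), with 0 called in either. The 7 mucous cell markers were all higher in wt, with a median of 1.52 and 5 called, and their sum over 5 markers was 197 to 296 in wt_OVA and 80.7 to 99.7 in wt_saline. In ko the mucous sum was 126 to 356 after OVA and 67.5 to 99.8 after saline. Of 5 mast cell markers, 4 were called higher in wt after OVA, with a median of 2.25, and their sum was 5.78 to 10.9 in wt_OVA and 0.911 to 2.24 in wt_saline. In ko 0 of these were called after OVA, with a median of 0.12, and the sum was 43.5 to 82.1 in ko_OVA and 41.9 to 58.1 in ko_saline. In ko_saline against wt_saline, 5 of 5 were called higher, where 0 cilium genes were called. Striated muscle markers, with 0 called after OVA, had sums over 5 markers of 0.623 to 66.9 in wt_OVA and 0.701 to 13.8 in wt_saline. In ko those sums were 0.545 to 1.60 after OVA and 0.969 to 103 after saline. Of 5 alveolar markers, only Sftpb was called after OVA, lower at -2.88 in wt and -2.56 in ko. The part of a changed mix of cells in the cilium result was not tested.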

How the data were processed

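Airway epithelium RNA of 16 samples, 4 in each of 4 groups, was labelled with Cy3 and hybridized to one-colour arrays. The scanner files hold spot intensity values after background subtraction, as deposited, made with Feature Extraction. Its version is 10.5.1.1 in the file headers, whereas the submitters' processing notes give 10.1. The authors' deposited series table holds log2 values and served as an alternative. Array design is on an older build, so promoter windows and their coordinates come from RefSeq on GRCm38.p6.

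Control spots and flagged spots were left out, which removed 18 spots of 7 cilium genes. Signals were divided by the array's 75th percentile, floored at -3.32 (log2) and log2 transformed. A probe was kept where at least 4 arrays had it well above background (25615 of 41174), and the brightest probe stood for each gene. RefSeq accessions matched 24844 probes to a symbol. Of 21 cilium genes with several kept probes, 2 had probes of opposite sign in wt and 2 in ko. One limma fit (version 3.58.1, R 4.3.3) took in every array, with Benjamini-Hochberg adjustment at 0.05. The fit was also run on simulated data with known changes, and the share of those changes recovered is not given here. The number of arrays limits the precision.

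Members and gene lists were chosen with earlier results of these data known. Named genes were Foxj1, Mcidas, Ccdc39, Ccdc40, Hydin and Spag6, up to 3 called genes a role, or the 2 lowest p-values in wt where a role had none, unmeasured genes, the 5 genes most like Foxj1 (1 of them is not reported here), and up to 3 called genes a list; others were named after their values were seen. Alternatives were the scaling, floor, probe filter, probe choice, spot flags, array weights, slide, position and replicate blocks, and leaving out arrays. Numbers in the sample titles were checked as a pairing. Deviations of same-numbered arrays correlated between -0.401 and 0.422 (median -0.011), and those of differently numbered arrays between -0.570 and 0.470 (median -0.014). The main fit therefore used no pairing, though this check cannot exclude one.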

Additional observations from a re-analysis of the deposited data

Results flagged for a closer look

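Among 69 groups of 4 arrays tested by Dixon's criterion, 1 was flagged for an array far from the others. The level of Dnaic1, an outer arm intermediate chain, was 3.15 on wt_saline 1, whereas the other 3 wt_saline arrays lay between 3.37 and 3.38. Chance flags about 1 in 20 groups.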

How the results depend on the processing

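The difference between the cilium median and the median of all genes stayed between 0.31 and 0.49 in wt and between 0.15 and 0.36 in ko after OVA over 34 alternatives, and between -0.26 and -0.11 in ko against wt after OVA. Counts of called genes moved more, and so did the share of all features called, given in brackets. In wt, against 5 (2.61%), the count was 1 with median scaling (0.545%) or with array position as a block (0.506%), 2 with only the arrays compared (1.27%), without wt_OVA 1 and wt_OVA 2 (0.867%), or with median scaling and without both (0.578%), 10 with the percentile taken over probes detected on all arrays (3.34%), and 28 with array weights (7.82%), which gave wt_OVA 1 a weight of 0.0810. In ko, against 0 (0.749%), it was 2 with outlier spots kept, Ccdc39 and Dnah9 (0.868%), and 4 with array weights (1.91%). In ko against wt after OVA, against 0, it was 1 (Dnah8) with array position as a block. In the average over genotypes, against 16 (6.46%), it was 1 with median scaling (2.07%), 5 with median scaling and without wt_OVA 1 and wt_OVA 2 (3.30%), 7 with array position as a block (2.83%), 8 with slide as a block (4.02%) and 42 with array weights (13.4%). Median scaling gave medians of 0.10 in wt, 0.18 in ko against wt after OVA and 0.15 in the interaction. Relative to the cilium genes, an alternative chosen after seeing the data as were those without wt_OVA 1 and wt_OVA 2, the counts were 3 in wt (23.5%) and 8 in the average (39.7%), and the medians were by construction near 0, at 0.0144 in wt, -0.0036 in ko and -0.00064 in the average. Dnaaf2 reversed there, at -0.0260 in the average, and Ift80 reversed to -0.0480 with the mean of all probes. The causes were not tested.

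Leaving out 1 array at a time gave counts of 3 to 8 in wt, 0 to 1 in ko, 0 to 1 in ko against wt after OVA and 9 to 27 in the average; the average was 9 without wt_OVA 3, ko_saline 1 or ko_saline 2, 10 without wt_saline 1, wt_saline 2 or ko_OVA 1, and 27 without ko_saline 4. The count in wt was 8 without ko_OVA 1. The calls in ko were Dnah9 without wt_saline 2 and Ccdc39 without wt_OVA 1 or ko_saline 4. The medians ran between 0.31 and 0.46 in wt, 0.15 and 0.35 in ko, -0.11 and 0.03 in ko against wt after saline, -0.23 and -0.11 in ko against wt after OVA, -0.21 and -0.06 in the interaction and 0.27 and 0.37 in the average. With the replicate block, 5 genes were called in wt, where Dnah2 was lost and Dnal1 gained, 0 in ko and 13 in the average. For these counts and those with 1 array left out, the share of all features called is not given here. They describe calls only and are not set against all features. Dim signal limits Dnah8 and the 4 unmeasured genes.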
